A study of Drosophila melanogaster with 2 samples.

Results

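The regions described here are the Gcm2-GFP binding peaks that lie inside introns. They are the 654 of 2177 peaks (30.0%) in the authors' final list for genome build dm6 whose summit, the strongest point of the peak, lay in no annotated exon, inside a gene body and more than 500 bp from every annotated transcription start site (TSS). The final list came from the irreproducible discovery rate (IDR) procedure, which keeps regions according to how alike they rank in replicates, and its members are called IDR peaks below. Of the other IDR peaks, 1256 lay within 500 bp of a TSS (promoter peaks), 215 lay outside genes (intergenic peaks) and 52 lay in exons farther than 500 bp from a TSS.

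Chromatin immunoprecipitation with an antibody against GFP, followed by sequencing, was carried out on whole embryos of both sexes aged 0 to 24 h. The strain, gcm2-GFP, is a transgenic Drosophila melanogaster line that stably makes Gcm2 with GFP fused to its C terminus. The 2 libraries, biological replicates 2 and 3, form 1 group, so no condition was compared. The chromatin was sonicated to 200 to 800 bp. Whole embryos mix all tissues and stages of embryogenesis, so a peak cannot be assigned to a cell type, and a library without the tag was not analysed here. The labels do not say how the replicates were collected, so the spread between them may be technical.

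Gcm and Gcm2 are paralogous transcription factors with a zinc-containing GCM domain. In the fly embryo they promote the development of glia and of macrophage-like hemocytes. Introns of developmental genes often hold enhancers, the stretches of DNA through which transcription factors act on a promoter at a distance.

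All shares and values below come from the dm6 lists: the IDR list, the candidate list of the pooled replicates and a candidate list for each replicate. Every candidate list held 30000 regions, background regions included, and 10070 pooled candidates met the intron rule. IDR peaks made up 6.49% of these. Another 9211 overlapped no IDR peak and are called intronic weak candidates, and the others, which overlapped an IDR peak, were left out. Signal is the authors' enrichment value of a region, on a scale not given in the sources used here, and read depth is unknown. The IDR list was selected on signal in the pooled list, so signal is given as description and without a test.

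The sequences around the strongest intronic summits, and around both summits with a match to the GCM consensus, are printed as examples of the DNA at these summits; of the 7 strongest, HmgZ, the fifth, is not shown. Each runs from 100 bp before to 100 bp after the summit on the plus strand of the Release 6 RefSeq genome. Capitals mark matches to any of the 12 consensus motifs searched below, on either strand.
ush: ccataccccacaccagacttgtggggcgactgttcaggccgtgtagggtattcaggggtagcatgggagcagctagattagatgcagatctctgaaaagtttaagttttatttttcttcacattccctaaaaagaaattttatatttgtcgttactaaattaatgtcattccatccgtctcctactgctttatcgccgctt
CG11050: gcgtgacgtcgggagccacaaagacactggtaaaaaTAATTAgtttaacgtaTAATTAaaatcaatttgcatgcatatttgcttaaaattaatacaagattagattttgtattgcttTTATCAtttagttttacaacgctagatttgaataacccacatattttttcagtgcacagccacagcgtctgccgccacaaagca
Lk6: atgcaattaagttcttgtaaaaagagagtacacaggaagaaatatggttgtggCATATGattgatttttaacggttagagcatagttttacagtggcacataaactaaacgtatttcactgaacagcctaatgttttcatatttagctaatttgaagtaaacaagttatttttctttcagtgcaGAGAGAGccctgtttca
CG9663: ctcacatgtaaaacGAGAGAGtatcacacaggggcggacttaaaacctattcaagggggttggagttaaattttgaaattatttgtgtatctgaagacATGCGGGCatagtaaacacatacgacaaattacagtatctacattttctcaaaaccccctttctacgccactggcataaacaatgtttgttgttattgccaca
Tlk: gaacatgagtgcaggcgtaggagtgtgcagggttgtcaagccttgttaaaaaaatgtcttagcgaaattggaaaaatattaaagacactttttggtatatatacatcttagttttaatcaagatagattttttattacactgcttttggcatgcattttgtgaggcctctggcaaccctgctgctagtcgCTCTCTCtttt
chif: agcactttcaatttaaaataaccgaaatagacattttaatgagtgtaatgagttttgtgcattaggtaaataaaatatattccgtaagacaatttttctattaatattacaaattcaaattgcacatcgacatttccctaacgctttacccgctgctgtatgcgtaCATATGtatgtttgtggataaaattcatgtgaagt
Cyp1: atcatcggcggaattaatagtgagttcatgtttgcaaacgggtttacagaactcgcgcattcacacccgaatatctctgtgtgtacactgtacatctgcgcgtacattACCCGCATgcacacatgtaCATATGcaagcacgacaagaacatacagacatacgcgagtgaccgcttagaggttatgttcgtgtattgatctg

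The strongest intronic peak was also the strongest of all 2177. It lay at 2L:480890-481290 (dm6), in the 49.1 kb first intron of ush, which encodes U-shaped, a cofactor of GATA factors in blood cell and heart development. Its signal was 1029 in the pooled list, 527 in replicate 2 and 475 in replicate 3, and it ranked 1 in each of these lists. The window printed for this summit held 0 matches to the 12 motifs. The second, at 2L:6612509-6612904, lay in the 140 bp second intron of CG11050, with a signal of 646 (324 in each replicate). The next, at 3R:11760866-11761195, lay in the first intron of Lk6, a protein kinase that acts on the translation initiation factor eIF4E, with a signal of 536 (299 and 240.3 in replicates 2 and 3). The fourth, in the first intron of CG9663, lay at 2L:3301989-3302326 and had a signal of 522 (271 and 255).

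The other 11 of the 15 strongest lay in genes of mixed roles. HmgZ, an HMG-box protein, had a signal of 457 (216 and 242 in replicates 2 and 3), Tlk, a kinase of chromatin assembly, 438 (225 and 215), and Trl, which encodes the GAGA factor, 331 (169 and 164). The HmgZ peak shares its interval with a further row of the list that has another summit, so this interval counts as 2 of the 654. The gene chif, which encodes the activator subunit of the Cdc7 kinase, had a signal of 409 (195 and 200.6). NFAT, a transcription factor of the Rel-homology group, had 308 (156 and 154). LPCAT, a phospholipid acyltransferase, had 291 (145 and 142). The remaining hosts were CG32772, CG3726, CG12769, CG32486 and CG9837, with signals from 320 to 362. At each of the 15 peaks both replicates held a matching region. Of the 15, 11 lay in a first intron and 4 in a second.

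Most intronic peaks were far weaker than these. The median signal was 81.3, with quartiles of 66.8 and 111; 36 peaks exceeded 200 and 442 lay under 100. The list ended in a dense part of the distribution. The last 3 intronic peaks inside it lay in Cdk4, a cyclin-dependent kinase of growth control (57.77), eIF5B, a translation initiation factor (57.76), and drongo (57.76). The first 3 intronic candidates outside it lay in DPCoAC (57.69), NetB, a netrin axon guidance cue (57.63), and jing (57.58), less than 0.2 below those inside.

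In the replicates' own lists, 622 of the 654 summits (95.1%) had a candidate summit within 100 bp in both, and 0 had none in either. The share fell to 76.1% within 50 bp and rose to 99.7% within 250 bp. At 418 (63.9%) both matching regions ranked among that replicate's own 2177 strongest. IDR was run on these same lists, so such matches follow in part from the selection and are no independent support. The shares for all IDR peaks and for weak candidates are not given here. Over the 622, the median signal was 43.7 in replicate 2 (quartiles 34.2 and 60.4) and 38.9 in replicate 3 (30.9 and 53.9). The log2 ratio of replicate 2 to replicate 3 had a median of 0.16 and an SD of 0.53 over regions, and 41 regions differed by more than 2-fold. The rank correlation across these regions was 0.60, as a description, since the regions were chosen on the pooled signal and share 2 libraries. Replicate values could part widely, also at stronger peaks. The peak in Prps, chosen after its values were seen, ranked 48 of 654 with a pooled signal of 176 but had 111.6 in replicate 2 and 18.5 in replicate 3. The strongest of 3 intronic peaks of aop had 74.9 and 21.2.

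**Figure D1:**
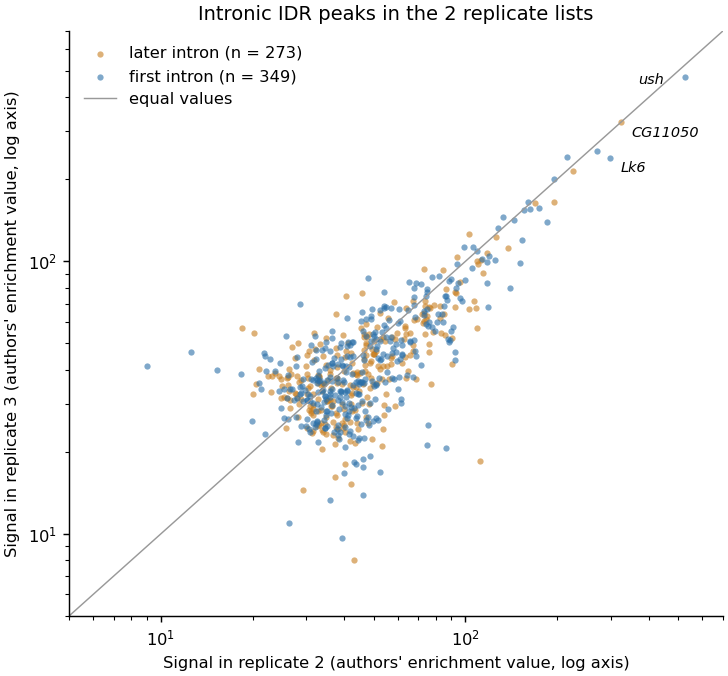
Signal of each intronic IDR peak in replicate 2 (x axis) and replicate 3 (y axis), both on log axes, for the 622 with a candidate within 100 bp in both lists; blue points lie in first introns, orange points in later introns, and the line marks equal values. The peaks in ush, CG11050 and Lk6 stand at the upper right near the line, most weaker peaks spread around it, and 41 peaks differ by more than 2-fold.

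The 654 peaks lay in 465 host genes, where the host is the gene with the shortest span that holds the summit in an intron. Of 8936 protein-coding genes with intron sequence that could meet the rule, 453 hosted a peak, or 5.07%; the other 12 hosts were noncoding genes. A single peak was found in 343 hosts, 2 in 85, 3 in 24 and at least 4 in 13. The 122 hosts with at least 2 held 311 peaks (47.6%). Summits close together count separately here, such as the 2 in CG9663, 214 bp apart, and the 2 in chif, 248 bp apart. The same count for weak candidates is not given here.

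The longest series lay in Raf, the kinase that links Ras to the MAP kinase cascade. Its 9 peaks all lay in the same 43.6 kb second intron, over 33.2 kb, with signals from 59.6 to 251. The strongest lay 2246 bp from the nearest Raf TSS, with 127 in replicate 2 and 123 in replicate 3. The next, 5250 bp from a TSS, had a signal of 209 (110.5 and 98.2). The 7 nearest the 5' end of the gene lay within 11007 bp of it, and the remaining 2 stood apart.

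CHES-1-like, which encodes a forkhead transcription factor, held 7 peaks in its first intron, with signals from 59.2 to 150.2. Its strongest had 89.9 in replicate 2 and 55.4 in replicate 3. The 6 peaks of ush all lay in the first intron over 39.7 kb, and the other 5 had signals of 59.6 to 116.0, far under the 1029 of the strongest. The 6 peaks of shn, a zinc-finger cofactor of the BMP pathway, had signals from 60.2 to 139, and 4 of them lay in the second intron. All 6 peaks of tara, a nuclear protein of the trithorax group and cell cycle, lay in its 30.3 kb intron with signals from 59.5 to 96.6.

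The 3 hosts with 5 peaks were CG32264 (59.0 to 181), CG1677 (63.9 to 139.9) and crp, a basic helix-loop-helix factor (63.0 to 99.6). With 4 peaks each came HmgZ, Tlk, mew, tou and sbb. These encode, beside both chromatin proteins named above, an integrin alpha subunit (mew), a chromatin remodelling protein (tou) and a transcriptional corepressor (sbb). The rule for named genes took the 10 hosts with most peaks, and the tie at 4 brought this to 13. Another intronic peak lay within 500 bp of 6.42% of intronic peaks, within 2 kb of 19.3% and within 10 kb of 39.8%. The same shares for weak candidates are not given here, so they describe these peaks alone. Pairs within 500 bp lay closer together than the longest sonicated fragments, and whether they are separate sites was not tested.

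**Figure D2:**
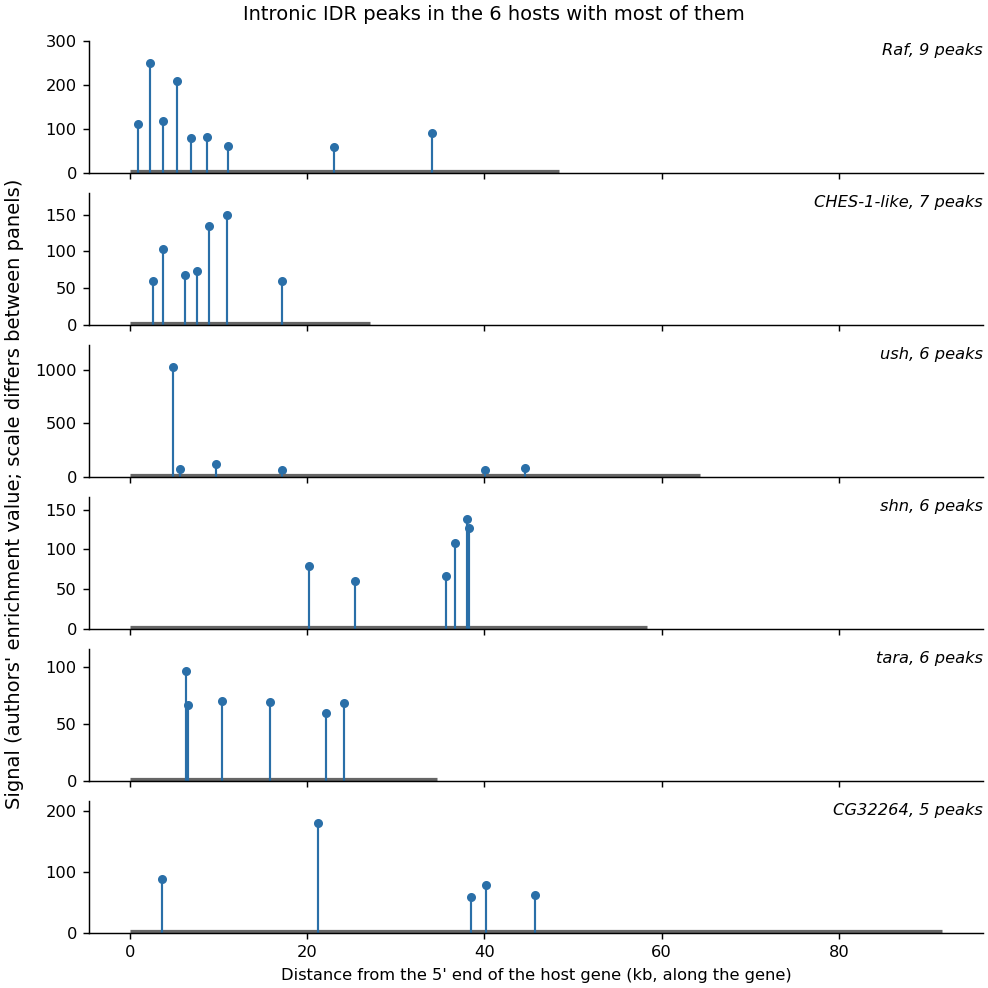
Intronic IDR peaks in the 6 hosts with most of them: x axis, distance of the summit from the 5' end of the gene in kb; y axis, signal in the pooled list, on a scale that differs between panels; the grey bar is the gene. Raf holds 9 peaks, 7 of them toward the 5' end, and in ush a peak of 1029 stands far above the other 5.

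Intronic peaks were densest in first introns and thinned with intron rank. Intron rank was counted in the host transcript with the longest span among those whose intron holds the summit. Per Mb of eligible intron sequence (in no exon and over 500 bp from a TSS, 52.8 Mb in all), first introns held 22.6 peaks (95% exact Poisson interval 20.3 to 25), second introns 13.4 (11.5 to 15.4), the third 6.42 (4.65 to 8.65) and later ones 3.45 (2.59 to 4.50). Weak candidates thinned as well, from 252 per Mb in first introns to 92.5 in the fourth or later. First introns held 56.1% of the peaks in 30.8% of the eligible sequence. The median signal was 82.5 in first and 81.8 in second introns, 73.5 in the third and 77.3 in later ones. When a summit counted as first-intronic if any transcript of its host had it in a first intron, 478 peaks (73.1%) did. The share of weak candidates under this wider rule is not given here, so 73.1% cannot be set beside the shares above. Peaks and weak candidates, both counted by the wider rule, differed by an odds ratio of 1.76.

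The hosts of intronic peaks had a median span of 24.2 kb over peaks (quartiles 11.4 and 48.4), from 1.62 kb to 394 kb. Hosts under 5 kb held 17.6 peaks per Mb (12.5 to 24.2). Peak density was highest in hosts of 5 to 10 kb, at 27.6 per Mb (22.3 to 33.7), and of 10 to 20 kb, at 22.7 (19.3 to 26.5). It was 13.6 (11.8 to 15.5) in hosts of 20 to 50 kb, 8.97 (7.35 to 10.8) in hosts of 50 to 100 kb and 3.50 (2.56 to 4.69) in longer ones. Within each length class first introns were denser than later ones: 35.8 against 12.5 per Mb in hosts under 10 kb, 25.3 against 10.5 in hosts of 10 to 50 kb, and 9.43 against 5.39 in longer hosts. Weak candidates did the same, with 338 against 215, 269.6 against 181 and 165 against 102 per Mb, and by host length they fell from 284 per Mb at 5 to 10 kb to 71.9 at 100 kb or more. IDR peaks made up 9.58% of first-intron and 5.49% of later-intron regions in hosts under 10 kb, 8.58% and 5.51% in hosts of 10 to 50 kb, and 5.40% and 5.01% in longer hosts. By length of the intron itself, density was lowest in introns under 1 kb, at 4.66 (2.80 to 7.27), and highest at 1 to 5 kb, at 20.8 (17.8 to 24.1), where weak candidates had 176 and 208 per Mb.

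**Figure D3:**
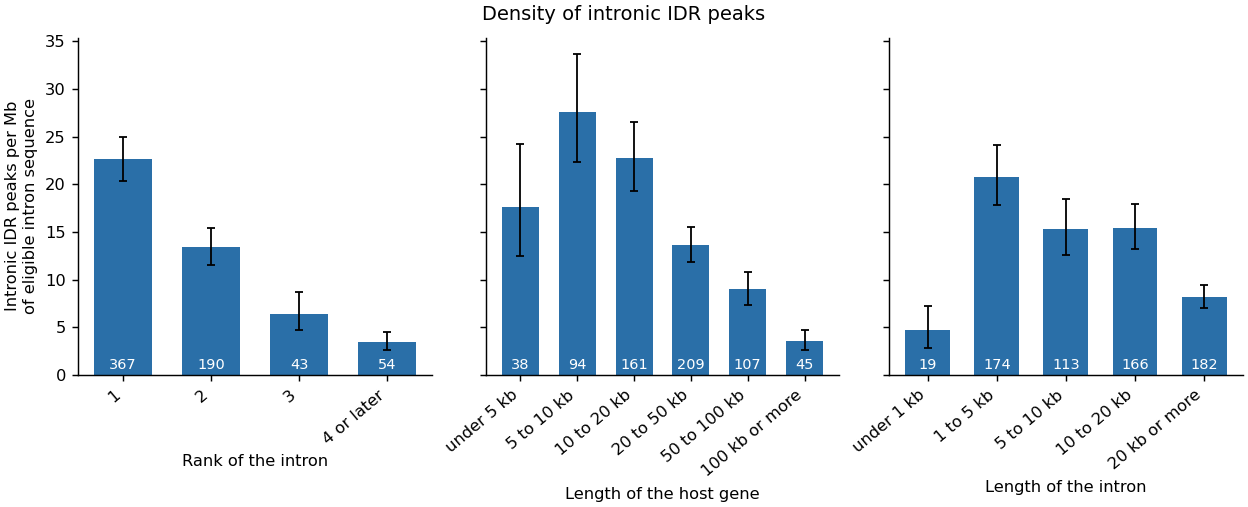
Intronic IDR peaks per Mb of eligible intron sequence (y axis) by rank of the intron, length of the host gene and length of the intron (x axes); lines are 95% exact Poisson intervals, which cover counting error only, and white figures are peak counts. Density falls from 22.6 per Mb in first introns to 3.45 in the fourth or later, and from 27.6 in hosts of 5 to 10 kb to 3.50 in hosts of 100 kb or more.

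Set against intronic weak candidates, which were put to the same threshold, intronic peaks were more often in a first intron and nearer to a TSS. Shares were compared by two-sided Fisher's exact tests with Benjamini-Hochberg adjustment over 7 measures. The tests treat regions as independent, although regions share host genes and all come from the same 2 libraries. The spread between replicates is given as mean ± SD over the intronic members of each replicate's own 2177 strongest regions.

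First introns held 367 of 654 peaks (56.1%, Wilson 95% interval 52.3 to 59.9; replicates 57.0% ± 0.0494, n = 2) against 44.4% of weak candidates, an odds ratio of 1.60 (exact test, adjusted p = 1.6e-08). Against the 710 intronic ones among the 2177 strongest candidates just below the list, the odds ratio was 1.22 (exact test, adjusted p = 0.13). With 1 region per host gene it was 1.25 (exact test, adjusted p = 0.052), so the call did not hold under either.

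Summits between 500 and 1500 bp from a TSS made up 39.3% of peaks (35.6 to 43.1; replicates 40.8% ± 0.340, n = 2) against 26.4% of weak candidates (odds ratio 1.81, exact test, adjusted p = 1.7e-11). This call too was lost against candidates just below the list (odds ratio 1.28, exact test, adjusted p = 0.076), and it turned to 0.929 with 1 region per host gene. Peaks lay a median of 2103 bp from the nearest TSS and weak candidates 3200.0 bp. At 146 peaks (22.3%) the nearest TSS belonged to a gene other than the host, a share that is not given here for weak candidates. Of the peaks, 74.8% lay nearer the 5' end of the host than its 3' end, against 62.8% of weak candidates. IDR peaks made up 10.1% of intronic regions at over 500 and up to 1000 bp from a TSS and 3.61% of those beyond 10 kb.

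Hosts of 50 kb or more held 23.2% of peaks (20.2 to 26.6; replicates 22.4% ± 0.912, n = 2) against 30.6% of weak candidates (odds ratio 0.687, exact test, adjusted p = 1.0e-04). The direction depends on what is counted: with 1 region per host gene, which gives short and long genes equal weight, the odds ratio was 2.19 (exact test, adjusted p = 4.9e-08). Against candidates just below the list it was 0.746 (exact test, adjusted p = 0.067).

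Introns of 10 kb or more held 53.2% of peaks and 54.2% of weak candidates, a difference that did not pass (odds ratio 0.959, exact test, adjusted p = 0.73). With 1 region per host gene the odds ratio was 2.24 (exact test, adjusted p = 3.4e-14), and against the share of eligible sequence in such introns it was 0.683 (exact binomial test, adjusted p = 1.9e-06). Regions without a protein-coding host (1.53% against 1.57%) and regions inside at least 2 genes (7.49% against 6.25%) did not pass either, with adjusted p of 1.0 and 0.30 in the exact test.

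**Figure D4:**
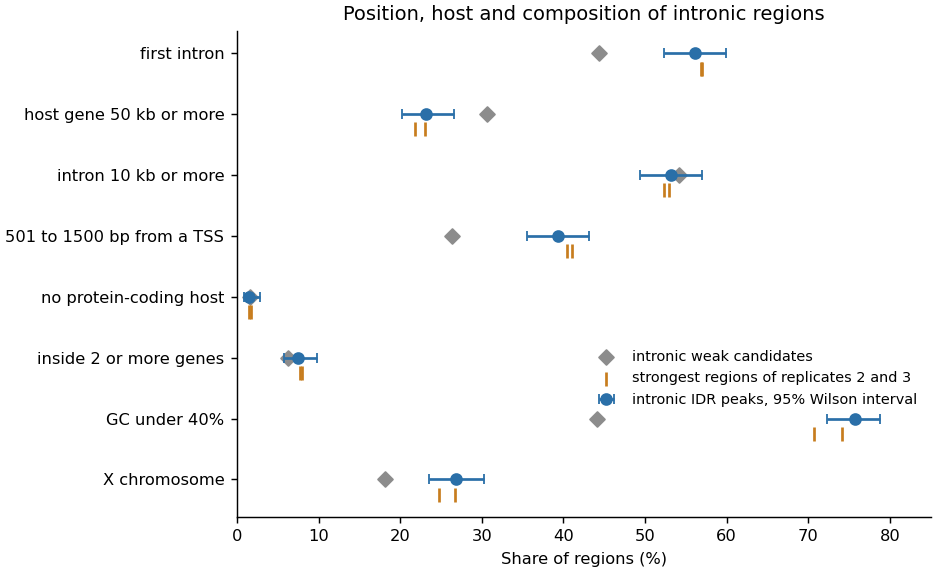
Share of regions in percent (x axis) with each position, host or composition feature (y axis): blue points, 654 intronic IDR peaks with 95% Wilson intervals; grey diamonds, 9211 intronic weak candidates; orange ticks, the strongest regions of replicates 2 and 3. The widest gap is in low GC content, 75.7% against 44.1%, and the X chromosome share is 26.8% against 18.1%.

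The X chromosome carried more intronic peaks than its share of weak candidates. This comparison was added after the counts per chromosome had been seen, and the p-values are adjusted over 6 chromosomes. On the X lay 175 of 654 peaks (26.8%, 23.5 to 30.3; replicates 25.8% ± 1.34, n = 2) against 18.1% of weak candidates (odds ratio 1.66, exact test, adjusted p = 8.1e-07). The share was 14.3% among promoter peaks and 8.37% among intergenic peaks, and against all other IDR peaks together (13.9%) the odds ratio was 2.27 (exact test, adjusted p = 1.7e-11). Per Mb of eligible intron sequence the X held 17.1 peaks (14.7 to 19.9), while the large autosome arms held 10.7 to 12.9. The peaks of Raf, CHES-1-like, CG1677, Tlk and mew are among those on the X, but with 1 region per host gene the odds ratio was still 1.58 (exact test, adjusted p = 9.4e-04). Intronic peaks on the X were in a first intron in 48% and those on the autosomes in 59.1%, with median signals of 82.5 and 80.9. Embryos of both sexes were pooled, and the control signal on each chromosome was not analysed here. On chromosome 4 lay 0 of 654, which allows a share of up to 0.459%, against 0.662% of weak candidates (exact test, adjusted p = 0.067).

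Intronic summits lay in narrow dips of GC content. The mean GC content was 34.7% within 50 bp of the summit, 43.4% at 200 to 400 bp and 40.5% at 800 to 1000 bp. In weak candidates the same 3 values were 41.1%, 42.3% and 41.4%, without such a dip. Promoter peaks had 38.6%, 43.7% and 44.6%, and intergenic peaks 36.1%, 43.0% and 41.3%. From 100 bp before to 100 bp after the summit, GC content was under 40% in 75.7% of intronic peaks (72.3 to 78.8; replicates 72.4% ± 2.41, n = 2) and in 44.1% of weak candidates (odds ratio 3.95, exact test, adjusted p = 5.5e-56). Against candidates just below the list the odds ratio was smaller, 1.84 (exact test, adjusted p = 2.3e-06). Against promoter peaks (61.1%) it was 1.98 (exact test, adjusted p = 1.8e-10), and against intergenic peaks (73.0%) the difference did not pass, with an odds ratio of 1.15 (exact test, adjusted p = 0.47). Of the windows printed above, chif had the lowest GC content (29.9%) and Cyp1 the highest (45.3%).

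**Figure D5:**
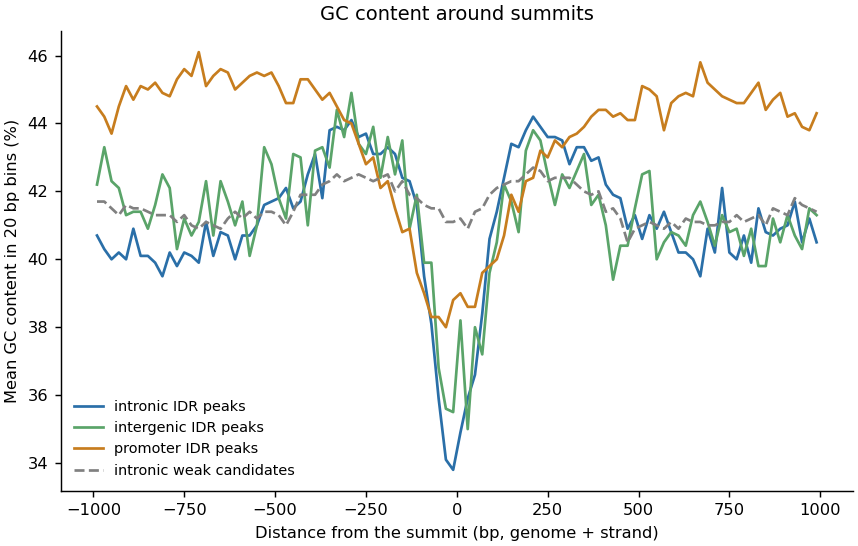
Mean GC content in 20 bp bins (y axis) by distance from the summit along the genome's plus strand (x axis), for intronic, intergenic and promoter IDR peaks and for intronic weak candidates. Intronic peaks fall to about the level of intergenic ones at the summit (34.7% and 36.1% within 50 bp), promoter peaks fall less far (38.6%), and weak candidates show no such dip (41.1%).

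Matches to the GCM consensus were rare. The consensus was searched as ATACGGGC, ATACGGGT, ATGCGGGC and ATGCGGGT on either strand, up to 100 bp from the summit. A match was found at 2 of 654 intronic peaks (0.306%, 0.0839 to 1.11) and at 1.52% of weak candidates (odds ratio 0.199, exact test, adjusted p = 0.036 over 12 motifs). This call was lost under 8 of 10 alternatives, in which the odds ratio was 0.171 to 0.491. One match, ATGCGGGC, lay 2 bp from the strong summit in CG9663. The other, ACCCGCAT, lay 12 bp from the summit of a weak peak in the intron of Cyp1, a cyclophilin, with a signal of 60.1 (33.6 in replicate 2 and 29.2 in replicate 3). The difference from promoter peaks (0.955%) and from intergenic peaks (0.930%) did not pass, with adjusted p of 0.24 and 0.41 in the exact test.

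Among the other 11 motifs, the word bound by GATA factors passed against weak candidates, at 31.7% against 25.6% (odds ratio 1.34, exact test, adjusted p = 0.011). It was searched as AGATAA and also, with another base in front, in the form TGATAA. Its words are rich in A and T, and when regions were stratified by GC content the odds ratio was 1.07 and the call was lost; it was lost under 5 of 10 alternatives in all. The other 10 did not pass. The homeodomain core was searched as TAATTA, and E-boxes as CAGCTG or, counted separately, as CATATG. The word for the GAGA factor was GAGAGAG and the word for dinucleotide repeats was CACACAC. Zelda was searched as CAGGTAG, while Su(H), the Notch pathway factor, was searched as GTGGGAA. The insulator factor CTCF was searched as AGGTGGCGC, the stress-responsive dimer AP-1 as TGANTCA, and DRE as TATCGATA. None of the words of a motif is contained in a word of another, but matches of different motifs may overlap in a window. At 240 peaks (36.7%) there was no match to any of the 12.

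Against promoter peaks, 5 motifs passed. DRE, the element bound by the promoter factor DREF, was at 0.306% of intronic and 6.77% of promoter peaks (odds ratio 0.0423, exact test, adjusted p = 9.7e-13). The E-box CAGCTG was also rarer, at 7.65% against 14.8% (odds ratio 0.476, exact test, adjusted p = 2.1e-05). More frequent in introns were the E-box CATATG (10.4% against 6.13%, adjusted p = 0.0041), GATA (31.7% against 24.3%, adjusted p = 0.0029) and AP-1 (6.12% against 3.26%, adjusted p = 0.0097), in the same exact test. The AP-1 call was lost when only 50 bp on each side were searched. Against intergenic peaks 0 of 12 motifs passed Fisher's exact test after adjustment, and 2 had an unadjusted p under 0.05.

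Host genes were also read by 19 lists of pathways and gene classes. Beside each count stands the background of 5.07% of all 8936 eligible protein-coding genes, whose median length of 3.53 kb is shorter than that of most lists, so the peaks per Mb of eligible intron sequence are given too (12.5 over all genes). No test was made over lists, and genes can be in several.

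In the 5 lists of signalling pathways 21.7% to 37.5% of eligible genes were hosts. A signal given for a gene is that of its strongest intronic peak. In the BMP and Activin list 6 of 16 genes hosted 13 peaks (82.1 per Mb, median length 9.01 kb). Mad, the transcription factor that carries the signal to the nucleus, had a peak of 151 (67.6 in replicate 2 and 79.7 in replicate 3). Its inhibitor Dad had one of 152.5 (82.6 and 68.5). The ligand dpp (60.7), the extracellular antagonist sog (64.7), the receptor wit (114.8) and shn (139) were the other hosts.

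In the EGFR and FGF list 7 of 23 genes hosted 11 peaks (34.1 per Mb). S, which encodes the cargo receptor Star that helps process EGFR ligands, had the strongest (178, with 90.0 and 86.5 in replicates 2 and 3). The ligand vn (114), the secreted inhibitor aos (126), the adaptor drk (116) and both Ets factors at the end of the pathway, the activator pnt (131) and the repressor aop (98.3), also hosted peaks. In the Notch list 5 of 18 did (21.7 per Mb), led by the receptor N itself with 194 (94.1 and 103.4), the ubiquitin ligase neur (145) and the coactivator mam (142). This hand-written list also counts Notum (88.8) and nmo (66.5) as hosts, whose place in the Notch pathway was not checked. The Wnt and Hedgehog list had 5 of 23 (16.8 per Mb), among them the receptor fz (158) and the glypican dlp (135). The list of Hippo, JNK and JAK/STAT genes had 6 of 24 (30.8 per Mb), with Stat92E at 99.1 (28.6 and 69.8), a peak whose replicate values lie far apart.

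Of 17 BTB zinc finger factors 8 hosted a peak, with CG3726 (337) and Trl (331) the strongest and lola (89.5), ken (98.4) and br (78.1) among the others. These genes are long, with a median of 45 kb, and their density was 18.7 per Mb. Among chromatin regulators 5 of 28 hosted 9 peaks in little intron sequence (0.0826 Mb eligible, 109 per Mb). They included trx, the founding trithorax group gene, with 224 (120.0 and 104.8 in replicates 2 and 3), and the Polycomb group genes ph-p (109.8) and Psc (107). At Psc the replicate values lay far apart (18.5 and 56.9). Of 26 Ets, Fox, Runx and Sox factors 4 hosted 13 peaks (37.7 per Mb), 7 of them in CHES-1-like. Nuclear receptors and ecdysone response genes had 5 of 21 (16.6 per Mb, median length 33.4 kb), led by Hr4 (206) and EcR (147). Homeobox factors had the lowest density of the lists with a peak: 2 of 47 hosted a peak, hth (62.4) and Lim1 (84.8), at 2.86 per Mb.

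The lists tied to the known roles of Gcm factors held few hosts in number, but their shares were above the background of 5.07%. Their genes are longer than the background median, with medians of 11.8, 9.02 and 15.9 kb in the order below. Per Mb of eligible intron sequence the Gcm pathway and glia lists (14.2 and 12.6) lay close to the 12.5 over all genes. Both were under the 27.6 of all hosts of 5 to 10 kb and the 22.7 of those of 10 to 20 kb. Of 6 genes of the Gcm pathway list, pnt alone hosted one (16.7%, 14.2 per Mb). Of 21 glial genes 3 did (14.3%, 12.6 per Mb). They were Gs2, which encodes a glutamine synthetase, with 203 (117 in replicate 2 and 83.5 in replicate 3), ths, an FGF ligand (60.6), and cv-c (59.5). Of 18 hemocyte and GATA genes ush, N and grn (16.7%) hosted 8 peaks at 39.1 per Mb, 6 of them in ush. The gene gcm has 75 bp of eligible intron sequence and gcm2 has 1663 bp, and neither hosted an IDR peak. In the introns of gcm2 lay 3 weak candidates.

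Among structural and neural genes, 7 of 30 muscle and tendon genes hosted 12 peaks (26.5 per Mb), including mew (114), mbc, a regulator of myoblast fusion (90.3), and the muscle transcription factor Mef2 (71.7). The mbc peak had no candidate summit within 100 bp in replicate 2 and a signal of 64.2 in replicate 3. In axon guidance and adhesion 11 of 44 hosted 15 peaks, but these genes are long (median 44.5 kb) and the density was 7.64 per Mb. The strongest was in kirre (124), which encodes an immunoglobulin protein of myoblast and cell adhesion, followed by the netrin receptor fra (93.2) and sli, the midline repellent Slit (92.2). Ion channel and synapse genes had 3 of 37 at 4.04 per Mb, namely KCNQ (181), dnc (123) and dlg1 (70.7). RNA-binding regulators had 6 of 23 at 5.49 per Mb, led by mub (167) and brat (166). Of 9 cytosolic ribosomal protein genes with eligible intron sequence (0.00207 Mb in all) 0 hosted a peak.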

How the data were processed

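Regions came from ChIP-seq of 2 biological replicates (2 and 3). Per the deposited file lists, the candidates of each replicate were called by the authors on its own alignments with a control, those of the pooled list on both, and IDR was run on these 3 lists. Not given in the sources used here are the aligner, the peak caller and the IDR threshold. The signal of each region is the authors' deposited enrichment value, the −log10 q-value is also the authors' (used for an alternative background only), and the deposited summit offset gave positions. The dm6 lists were used, the dm3 lists were not.

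Summits were placed on the Ensembl 115 annotation (1-based coordinates) with annotated transposable elements not counted as genes, and motifs and GC content were read from the Release 6 RefSeq genome. Where several genes held a summit, the gene with the shortest span was the host. Python 3.11.15, SciPy 1.17.1, statsmodels 0.14.6 and pandas 2.3.3 were used; the tests were also tested on simulated data. Shares were compared by two-sided Fisher's exact tests, adjusted by Benjamini-Hochberg within each family, at a threshold of 0.05. Intervals cover counting error only, since read depth is unknown. Of 520 list entries, 16 matched no gene symbol, and the result of 1 list is not reported here.

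The members, lists, motifs and tests were chosen with earlier results of these data known. Genes were named by a rule: hosts of the 15 strongest peaks, the 10 hosts with most peaks, hosts of peaks with a GCM match, up to 5 hosts per list by signal, gcm, gcm2, and hosts of the 3 peaks just inside the threshold. DPCoAC, NetB and jing show the other side of the threshold. Alternatives changed the replicate used, background, TSS distance, GC and motif windows, hosts per gene and handling of transposable elements.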

Additional observations from a re-analysis of the deposited data

How the results depend on the processing

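Of 277 recomputed values 215 were classed as unchanged. For odds ratios this means the same direction and the same side of the threshold. Counts had to stay near the main count, and the replicate match inside the Wilson interval of its main value. Low GC content (12 of 12) and the X chromosome share (11 of 11) were unchanged throughout. The intronic peak count was classed as unchanged in 6 of 6, though it ran from 494 (TSS distance 1000 bp) to 785 (250 bp). Counting transposable elements as genes, stratifying by TSS distance and the whole X comparison were chosen after seeing the data. The values below are odds ratios against weak candidates unless stated, and the cause of each change was not tested. Against candidates just below the list, they were 1.22 for first introns, 0.746 for long hosts, 1.28 near a TSS and 0.928 for nested genes. With 1 region per host gene, they were 1.25 for first introns, 2.19 for long hosts, 2.24 for long introns, 0.929 near a TSS and 1.12 for noncoding hosts. Noncoding hosts had 1.19 in the stronger part of the list and 1.00 at a TSS distance of 1000 bp, where nested genes had 0.965. Long introns had 0.683 against eligible sequence, and long hosts 0.857 when stratified by TSS distance. The number of motifs passing against weak candidates fell from 2 to 1 without replicate 2, without replicate 3 (1 to 1) and in the stronger part of the list, and to 0 against candidates just below the list, against those with a q-value at or below 0.05, with 1 region per host gene, within 50 bp and when stratified by GC content. Calls were also gained: with a TSS distance of 250 bp CATATG passed (1.45, 3 motifs in all), and stratified by GC content CA repeat passed against promoter peaks (1.81, 6 in all). Against weak candidates, motifs that had not passed changed side without passing: Zelda (0.868, 0.556, 0.833 and 0.880), CTCF (0.756, 0.963 and 0.704), AP-1 (0.962), CA repeat (1.03, 1.00, 1.06, 1.10 and 1.21), GAF (0.749, 0.874, 0.863 and 0.552), DRE (1.01), homeodomain (0.920) and CAGCTG (1.11). The same held against promoter peaks for Zelda (0.960) and CTCF (1.11). DRE gave no odds ratio against intergenic peaks within 50 bp. With either replicate left out, CA repeat ranged from 0.923 to 1.03 and CTCF from 0.756 to 3.10. The share of peaks matched in both replicates was 76.1% within 50 bp and 99.7% within 250 bp. No paired analysis was possible because there is 1 group. Read depth is unknown, and the replicates give 2 values per share.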

Other observations

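In 13 cases the host of an intronic peak by the shortest-span rule was a noncoding gene, and 12 such genes were found; 10 of all 654 peaks lay in no protein-coding gene at all. The strongest peaks of this kind lay in lncRNA:enrr (168, with 96.1 in replicate 2 and 73.7 in replicate 3), lncRNA:CR44810 (167, with 93.0 and 76.7) and asRNA:CR45189 (120.3, with 76.1 and 46.5). The first lies inside the spans of elav and arg and the last inside that of zfh1. The noncoding gene lncRNA:CR44357 held 2 peaks, with signals of 88.7 and 61.3. These genes were chosen after their values were seen.

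Hosts of an intronic peak had a promoter peak more often than hosts of weak candidates alone, as a description. Of all 8936 eligible protein-coding genes 12.8% had a promoter peak, and of the 6440 that hosted neither kind of region 10.3%. Among hosts the shares were, in that order, 30.5% of 453 and 17.0% of 2043 protein-coding genes. By length of the host they were 22 of 110 and 160 of 928 hosts under 10 kb, 35.1% and 17.8% at 10 to 50 kb, and 30.4% and 10.2% at 50 kb or more. Among the 13 hosts with at least 4 intronic peaks, CHES-1-like, shn, CG32264, crp, HmgZ and sbb had a promoter peak and the others had none. An annotated transposable element held the summit of 2 of 654 intronic peaks (0.306%) and of 0.434% of weak candidates.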
